A study of Mus musculus with 20 samples.

Results

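The genes described here encode the proteins of the cytosolic ribosome. They were chosen by name, as rows whose symbol is Rpl or Rps followed by a number (with an optional a, x, y, l or digit) or is Rplp0, Rplp1, Rplp2 or Rpsa, with a mean of at least 100 over the 20 libraries. Of 21705 genes in the table, 84 matched by name and 82 also had the level, 49 of the large subunit and 33 of the small subunit. All 82 were among the 13548 genes tested. Outside the level were Rpl39l, with a mean of 4.7, and Rpl10l, with a mean of 0.1, and the lowest members inside it were Rpl34 with 132, Rps4y2 with 664 and Rpl22l1 with 928.

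Each ribosome carries a fixed set of these proteins around its ribosomal RNAs, so a cell makes their messages in large and roughly balanced amounts. Most of these messages begin with a C followed by a run of pyrimidines, the terminal oligopyrimidine (TOP) motif, through which the kinase mTOR controls how strongly they are translated. Rapamycin inhibits mTOR, and growth of the heart muscle by mTOR works in part through more ribosomes.

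The libraries are poly(A) RNA of heart ventricles from male mice of the strain background C57Bl/J6, in 4 groups of 5. Acsl1H-/- mice that received rapamycin, Acsl1flox/flox mice that received rapamycin, Acsl1H-/- mice that received vehicle and Acsl1flox/flox mice that received vehicle are the groups. Acsl1 encodes an acyl-CoA synthetase that activates long-chain fatty acids for oxidation. In Acsl1H-/- mice (knockout below) it is deleted in the heart after tamoxifen, and their floxed littermates (control below) received tamoxifen as well, at 75 mg/kg on 4 days from an age of 6 to 8 weeks. Hearts were taken 2 weeks after tamoxifen, and rapamycin at 1 mg/kg or its vehicle was given daily for 2 weeks. The promoter that drives the Cre is not given in the sources used here, and an effect of the Cre or of tamoxifen with it cannot be told apart from the loss of Acsl1. The study asks how the heart responds to the loss of Acsl1 and what part of it rapamycin alters.

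Acsl1 checked the labels: its value was 631 to 1949.8 in the 10 knockout libraries and 6373 to 16661 in the 10 control libraries. Values are expression estimates that the authors scaled to an upper quartile of about 1000 per library, and the implied depth was 11.48 to 21.07 M reads. All 8 cardiomyocyte markers on the list used were present in every group, with a summed value of 1988804 to 2249913 in knockout rapamycin, 1909255 to 2229841 in control rapamycin, 1996165 to 2221449.6 in knockout vehicle and 2018454 to 2192679 in control vehicle libraries. Control vehicle libraries 1 and 3 stood apart, with the highest ribosomal protein levels of all. The main results for ribosomal protein genes that rest on them are given with and without them. In whole tissue, fewer cells of a type and less RNA per cell cannot be told apart.

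Annotated start sites were searched for a pyrimidine run near the start, a looser form of the motif by which these messages are known. RefSeq promoter sequences were found for 61 of the 82 genes. A C at the start site or within 5 bases of it, followed on the sense strand by at least 4 C or T, was present at 1 or more start sites of 29 of these 61 genes (47.5%), against 5718 of all 27025 genes in the same table (21.2%). The windows below run from 15 bases before the annotated start to its 15th base, 5′ to 3′, with that run in capitals. They show genes with the run and genes without it. All but Rps9 and Rps23 have their values given below, and those 2 are among the genes that passed the test under rapamycin with the length score as a covariate.
Rpl13a (GRCm38.p6 chr7:45128731-45128760, minus strand): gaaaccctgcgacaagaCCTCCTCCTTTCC
Rps6 (GRCm38.p6 chr4:86857353-86857382, minus strand): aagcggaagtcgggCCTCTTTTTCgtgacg
Rps9 (GRCm38.p6 chr7:3704026-3704055, plus strand): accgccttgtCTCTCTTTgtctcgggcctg
Rps23 (GRCm38.p6 chr13:90923107-90923136, plus strand): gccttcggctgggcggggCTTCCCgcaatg
Rpl28 (GRCm38.p6 chr7:4792950-4792979, plus strand): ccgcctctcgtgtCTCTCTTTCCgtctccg
Rpl13 (GRCm38.p6 chr8:123102335-123102364, plus strand): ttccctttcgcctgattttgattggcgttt
Rpl4 (GRCm38.p6 chr9:64173372-64173401, plus strand): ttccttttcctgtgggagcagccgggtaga
Rpl3l (GRCm38.p6 chr17:24727811-24727840, plus strand): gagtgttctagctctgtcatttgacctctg
Rplp0 (GRCm38.p6 chr5:115559452-115559481, plus strand): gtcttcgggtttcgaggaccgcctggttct
The first 5 hold the run and the other 4 do not at these annotated starts. A match or its absence describes these letters only. RefSeq starts can differ from those used in the heart, and Rpl3l has another listed start, also without the run.

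Per kilobase of transcript, the messages spanned a wide range of levels. Rps2 was highest by mean value, with 29027, or 30174 per kilobase, followed per kilobase by Rplp1 with 24148, Rps15 with 22192 and Rplp0 with 18479. Rps2 encodes a protein near the entry of the messenger RNA channel, and Rplp0 and Rplp1 encode parts of the stalk that recruits elongation factors. Rpl34 was lowest, with 274 per kilobase, and Rpl7l1 was next with 1055. The row of a processed copy, Rpl34-ps1, which the name rule leaves out, had a mean of 3025, against 132 for Rpl34. Ribosomal protein genes have many near-identical processed copies, and the authors' estimation divides shared reads between rows, so the level of any member is uncertain to that extent.

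The 82 messages varied together from library to library, with wide overlap between the groups. Their mean log2 value was 12.45, 12.17, 12.40, 12.56 and 11.96 in knockout rapamycin libraries 1 to 5 and 12.53, 12.75, 12.27, 11.93 and 12.35 in control rapamycin libraries. It was 12.25, 11.67, 11.81, 12.08 and 12.70 in knockout vehicle libraries and 13.09, 12.28, 13.13, 12.34 and 12.11 in control vehicle libraries. All 4 groups overlap, library 5 is high among knockout vehicle libraries, and control vehicle libraries 1 and 3 lie above every other library. Of the 82 genes, 78 had their highest value in control vehicle library 1 or 3, and 73 had their lowest in knockout vehicle library 2. The genes' share of the summed value of a library was 1.48% to 3.52%.

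**Figure D1:**
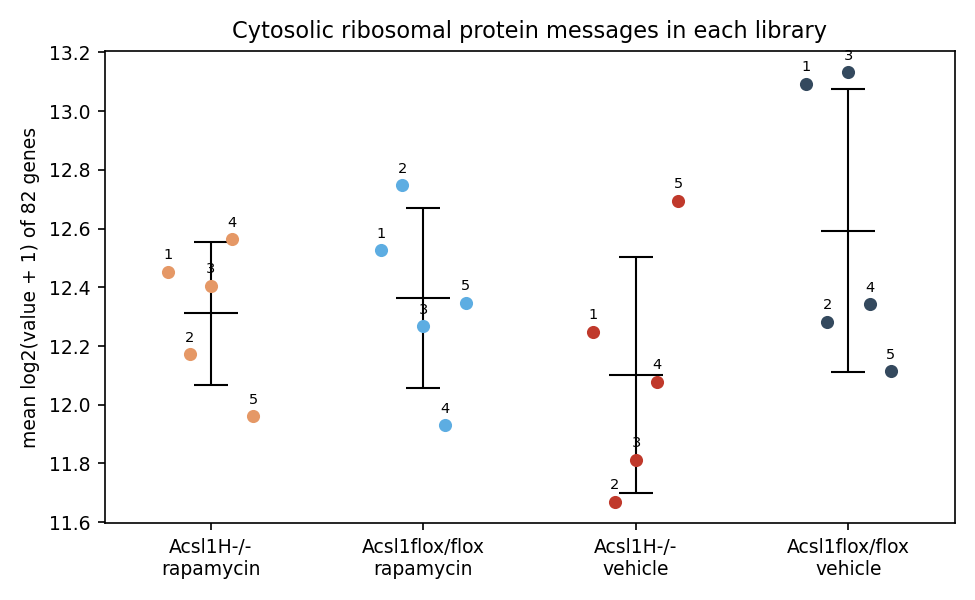
Mean log2(value + 1) of the 82 ribosomal protein genes in each library (points, numbered by replicate), with the group mean and SD as bars. The groups overlap, and control vehicle libraries 1 and 3, at 13.09 and 13.13, lie above all the others.

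As group means, the level was 12.31 ± 0.24 in knockout rapamycin, 12.36 ± 0.31 in control rapamycin, 12.10 ± 0.40 in knockout vehicle and 12.59 ± 0.48 in control vehicle hearts (log2 scale, SD, n = 5 each). Large and small subunit genes varied mostly together, with a smaller shift in their balance. The mean log2 value of large minus small subunit genes lay between -0.38 and -0.19 in all 20 libraries, while the members' mean spanned 1.46 on the same scale. It was -0.38 and -0.37 in control vehicle libraries 1 and 3, where the members' level was highest. In knockout vehicle library 2, where the level was lowest, it was -0.22.

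The ribosomal protein level followed the balance of long and short transcripts in a library. A length score was taken for each library as the mean log2 value of 3261 genes with long transcripts (at least 4287 bases) minus that of 3261 genes with short ones (at most 1801 bases). Every gene that matches the name rule was left out. Ribosomal protein genes that the rule misses, such as Fau and Gnb2l1, and those of the mitochondrial ribosome were not excluded. Ribosomal protein transcripts are short, with a median of 751 bases against 2810 for tested genes. Over the 20 libraries, Pearson's r between score and level was -0.95 and Spearman's rho -0.94, and without control vehicle libraries 3 and 1, the farthest from the median score, they were -0.93 and -0.92 over 18. The points share a library and its depth on both axes, so these values are a description. Within the groups of 5 the slope was -0.89 in knockout rapamycin, -1.10 in control rapamycin, -1.09 in knockout vehicle and -0.84 in control vehicle libraries, in log2 level per unit of score. Within the 4 pools of sequencing the slope was -0.72, -1.21, -0.87 and -1.12.

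**Figure D2:**
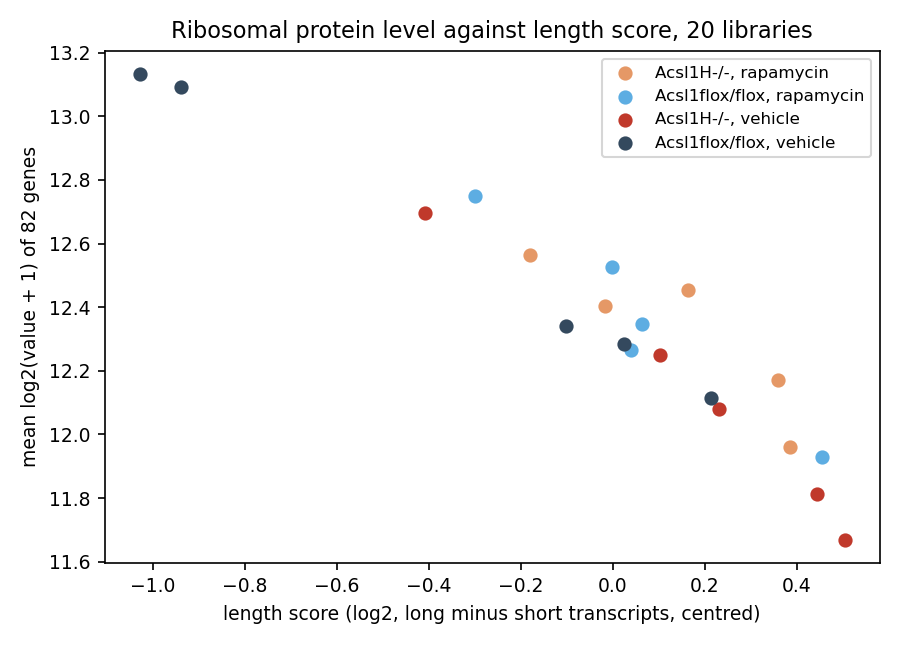
Mean log2(value + 1) of the 82 genes against the length score of each of the 20 libraries, coloured by group. The points of all 4 groups fall along a common downward line, with control vehicle libraries 1 and 3 at its upper left end.

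Most members followed the score one by one. With group means removed, 81 of the 82 genes had a negative slope on the score, with a median of -0.96, against a median of 0.04 over all tested genes and -0.47 over the tested genes of at most 1801 bases. Rps14, a small subunit protein, had the steepest slope at -1.33. Rpl4, a large subunit protein, was the exception with a slope of 0.00. Shallow slopes were also those of Rpl23 (-0.51) and Rpl21 (-0.52).

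Loss of Acsl1 under vehicle went with lower ribosomal protein values that did not pass the test. Of 82 genes, 81 had a negative fitted change, with a median of -0.51 on the log2 scale, against 0.07 over all genes tested. No member passed an adjusted p of 0.05 in the limma fit, where 0.244% of all genes were called, and the smallest adjusted p of a member was 0.0917. At an unadjusted p under 0.05, 50 members (61%) were lower and none higher, against 12.1% of all genes lower. Median changes were -0.50 for the large and -0.51 for the small subunit. Under quantile normalization the all-gene median moved to -0.03, and 49 members and 2247 of all genes were lower at that p, with 1885 higher, against 1634 lower and 2681 higher of all genes before.

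The difference rested on a few libraries. Without control vehicle libraries 1 and 3, the median was -0.15, and 1 member, Rpl3l, was lower at an unadjusted p under 0.05, against 2.47% of all genes. Leaving out knockout vehicle library 5 alone brought 45 members past the adjusted threshold, all lower, with 7.49% of all genes lower and called. Leaving out control vehicle library 5 alone brought 40, against 7.6% of all genes. The length score was 0.17 ± 0.36 in knockout vehicle and -0.37 ± 0.58 in control vehicle libraries (SD, n = 5 each). With the score as a covariate, the members' median was 0.01, and 1 member, Rpl13, was lower at an unadjusted p under 0.05, against 3.4% of all genes. With the covariate 3 members (3.66%) were higher at that p, against 6.47% of all genes. They were Rpl12, Rpl9 and Rps14, of which Rpl12 and Rpl9 are named after their values were seen. What sets the score was not tested. Within pools 1 to 4 the members' median difference was -0.49, -0.65, -0.90 and -0.06, beside a score difference of 0.62, 0.48, 1.05 and 0.02, with 1 or 2 libraries of each group in a pool.

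Markers of some other cell types differed between the genotypes under vehicle as well. The summed value of 6 erythroid genes, mostly globins, was 13554 to 46614 in knockout vehicle and 60723 to 155367 in control vehicle libraries, with no overlap. 2 of the 6 fell by the adjusted test, and all 6 were lower at an unadjusted p under 0.05. Over all genes, 0.244% were called in either direction and 12.1% were lower at that unadjusted p. Under rapamycin the sums were 29758 to 104799 in knockout and 38923 to 100946 in control libraries. The sum of 6 fibroblast genes was 25227 to 52403 in knockout vehicle and 20748 to 26748 in control vehicle libraries, with 4 of 6 higher at an unadjusted p under 0.05 and none called. The sum of 4 atrial genes was 4141 to 61871 in knockout vehicle and 1358 to 6054 in control vehicle libraries, with all 4 higher at an unadjusted p under 0.05 and none called. Over all genes, more were higher than lower at that p, by the counts given above. The 5 endothelial genes summed to 23732 to 28417 in knockout vehicle and 17420.0 to 38306 in control vehicle libraries, and the 5 macrophage genes to 2833 to 4568 in knockout vehicle and 2451 to 3134 in control vehicle libraries. The 5 skeletal muscle genes summed to 1445 to 2669 in knockout vehicle and 691 to 2182 in control vehicle libraries, and the 6 lymphocyte genes to 118 to 298 in knockout vehicle and 51 to 165 in control vehicle libraries. None of these markers was at 0 in all libraries. The part of these cells in the ribosomal protein values was not tested.

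Rpl3l had the smallest p of the members in this comparison. It encodes the form of ribosomal protein L3 made in heart and skeletal muscle. Its values were 8000.0, 5806, 6525, 8202 and 9773 in knockout vehicle libraries 1 to 5 and 11701, 11178, 18197, 9835 and 9274 in control vehicle libraries (log2 change -0.63, SE 0.19, adjusted p = 0.0917). The groups overlap only in that knockout library 5 lies above control library 5. Without control vehicle libraries 1 and 3 the log2 change was -0.42 (unadjusted p = 0.0437), and with the length score it was -0.25 (unadjusted p = 0.0546). Within pools 1 to 4 it was -0.42, -0.94, -1.19 and -0.18.

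Rpl28, a protein at the surface of the large subunit, measured 3868, 2628, 2773, 3664 and 5325 in the knockout vehicle libraries and 6652, 4944, 7063, 4356 and 4353 in control vehicle libraries (log2 change -0.60, SE 0.19, adjusted p = 0.0966). Here knockout library 5 lies above 3 of the control libraries. Rpl13 followed with 7088, 4598, 5079.5, 6473 and 10017 in knockout vehicle against 14431, 8253, 14292, 7735 and 7949 in control vehicle libraries (log2 change -0.66, SE 0.21, adjusted p = 0.0966), and again knockout library 5 lies among the control values. Rpl41, a peptide of the large subunit and the smallest ribosomal protein, averaged 5908 ± 1661 in knockout vehicle against 9004 ± 2599 in control vehicle hearts (log2 change -0.61, SE 0.20, adjusted p = 0.0974). The lowest fitted value belonged to Rplp0, often used as a reference gene in PCR assays. It had 20668, 11355, 12598, 18626 and 29102 in knockout vehicle and 45279, 23590.0, 47728, 27498 and 19718 in control vehicle libraries (log2 change -0.82, SE 0.29, adjusted p = 0.104). Knockout libraries 1 and 5 lie above control library 5, so the groups overlap. Rps2, the most abundant member, had 25509, 16208, 18088, 24499 and 34232 in knockout vehicle against 48234, 26354, 55241, 29548 and 24429.6 in control vehicle libraries (log2 change -0.60, SE 0.23, adjusted p = 0.111). Here knockout libraries 1, 4 and 5 lie among the control values. Leaving out control vehicle libraries 1 and 3, the change was -0.36 for Rpl28, -0.32 for Rpl13, -0.31 for Rpl41, -0.43 for Rplp0 and -0.22 for Rps2, with unadjusted p = 0.0827 for Rpl28 as the smallest of the 5.

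Under rapamycin the genotypes did not separate. Ribosomal protein genes had a median change of -0.04 in knockout rapamycin against control rapamycin hearts, beside -0.02 over all genes. None was called, with 0.0221% of all genes called, and 1 member (1.22%) was lower at an unadjusted p under 0.05, against 1.72% of all genes. That member was Rpl34, with 82.4, 74.4, 106, 108 and 95.2 in knockout rapamycin and 184, 198, 143, 94.8 and 191 in control rapamycin libraries (log2 change -0.76, SE 0.31, adjusted p = 1; unadjusted p = 0.0225). Only control library 4 lies among the knockout values. The row of its processed copy gave 2924, 2429, 3089.9, 3212 and 2210.5 in knockout rapamycin and 3237, 4474, 2531, 1932 and 2958 in control rapamycin libraries (log2 change -0.09, SE 0.27, adjusted p = 1), and this row, the more abundant of the pair, overlaps widely between genotypes. With the length score the change of Rpl34 was -0.66 (adjusted p = 0.339). Next by p were Rpl4 (log2 change 0.10, SE 0.09, adjusted p = 1), Rpl7l1 (log2 change -0.13, SE 0.15, adjusted p = 1) and Rps14 (log2 change -0.26, SE 0.31, adjusted p = 1). Rps14 averaged 8041 ± 1688 in knockout rapamycin and 9845 ± 2918 in control rapamycin hearts.

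The difference between the genotype effects was tested as the interaction of genotype and drug. Its median over the members was 0.46, against -0.09 over all genes. None was called, and 0.0% of all genes were. At an unadjusted p under 0.05, 5 members (6.1%) were positive, among them Rpl28, Rpl13, Rpl3l and Rpl41, against 2.22% of all genes. Without control vehicle libraries 1 and 3 the median was 0.11, and with the length score it was 0.03. Averaged over drug, the genotype change had a member median of -0.28, with no member called beside 0.443% of all genes. 9 members (11%) were lower at an unadjusted p under 0.05, against 8.73% of all genes. Without control vehicle libraries 1 and 3 the median was -0.10, and no member was lower at that p, against 3.2% of all genes.

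Rapamycin against vehicle gave fitted changes of opposite sign in the genotypes. In knockout hearts 79 of 82 members had a positive fitted change, with a median of 0.22 against -0.02 over all genes. In control hearts 80 of 82 had a negative one, with a median of -0.24 against 0.07, but without control vehicle libraries 1 and 3 the median was 0.12 and 70 changes were positive. No member was called in knockout hearts (0.00738% of all genes called), in control hearts (0.0%) or averaged over genotype (0.125%). 1 member, Rpl4, was higher at an unadjusted p under 0.05 in knockout hearts, against 2.3% of all genes, and again Rpl4 alone averaged over genotype, against 4.6%. In control hearts 1 member, Rps4y2, was lower, against 4.32%, and Rpl4 was higher. Leaving out control vehicle libraries 1 and 3, the change in control hearts was -0.13 for Rps4y2 and 0.20 for Rpl4. Within pools 1 to 4 the median change was -0.07, 0.82, 0.16 and 0.19 in knockout and -0.21, 0.04, -0.90 and 0.24 in control hearts, so the sign varied between pools in both genotypes. The comparisons share vehicle libraries with those of genotype.

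With the length score as a covariate, fitted changes under rapamycin were positive for most members in both genotypes. The median was 0.19 in knockout and 0.17 in control hearts, against -0.01 and 0.05 over all genes. Averaged over genotype, 26 of 82 members (31.7%) passed the adjusted threshold and all of these rose, against 1.5% of all genes. In knockout hearts 10 rose (12.2%), against 0.908%, and in control hearts none passed. At an unadjusted p under 0.05, 61 members were higher averaged over genotype, against 9.37% of all genes. The same count was 53 in knockout hearts, against 6.73%, and 38 in control hearts, against 7.07%. The interaction had a median of 0.03 with no member called and 3 positive (Rpl13 and Rpl28 among them) and 3 negative (Rpl34, Rps14 and, named after its values were seen, Rplp1) at an unadjusted p under 0.05. These are 3.66% each way, against 1.72% of all genes positive and 5.51% negative. Without control vehicle libraries 1 and 3 as well, 14 members rose averaged over genotype, against 0.768% of all genes, and 13 in knockout hearts, against 1.14%. With a score taken from genes of middle length instead, 12 members rose averaged over genotype, against 0.93% of all genes, and 2 in knockout hearts, against 0.598%. The covariate is itself measured on these libraries, and none of these members is called without it. The summed erythroid markers were 29758 to 104799 in knockout rapamycin and 13554 to 46614 in knockout vehicle libraries, and 38923 to 100946 in control rapamycin and 60723 to 155367 in control vehicle libraries. The atrial markers summed to 8103 to 57803 in knockout rapamycin and 4141 to 61871 in knockout vehicle libraries, and to 1521 to 34775 in control rapamycin and 1358 to 6054 in control vehicle libraries. Their part in these changes was not tested.

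**Figure D3:**
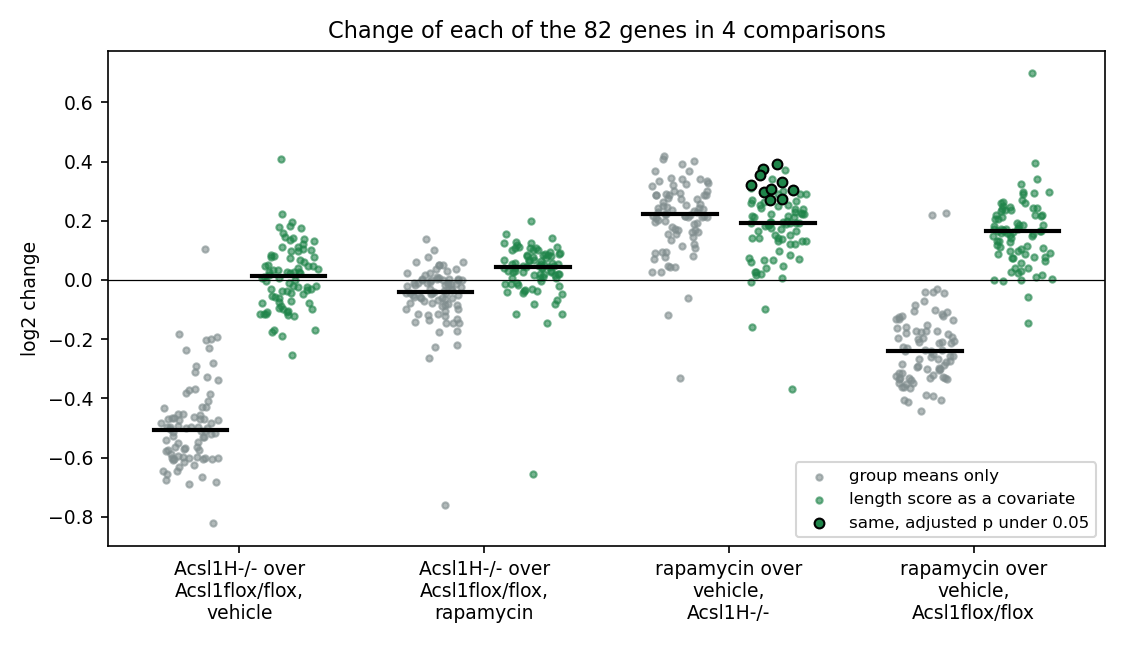
Fitted log2 change of each of the 82 genes in 4 comparisons, from group means alone (grey) and with the length score as a covariate (green), with the median as a line. Outlined points have an adjusted p under 0.05, and the only ones are 10 genes under rapamycin against vehicle in knockout hearts with the covariate.

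The genes that rose with the covariate averaged over genotype were 15 of the 49 of the large subunit and 11 of the 33 of the small subunit. Rps6, the small subunit protein that kinases below mTOR phosphorylate, had values of 13638, 11806, 12895, 14799 and 9447 in knockout rapamycin and 10293, 7564, 8157, 10001 and 14330.4 in knockout vehicle libraries. In control libraries it had 13531, 15761, 12027, 9747 and 11986 under rapamycin and 18714, 11198, 17868, 12169.9 and 10026 under vehicle. Groups overlap in both genotypes, and in knockout hearts 4 rapamycin libraries lie above 4 vehicle libraries. Its change averaged over genotype was 0.11 without the covariate (adjusted p = 0.796) and it rose with it (log2 change 0.26, SE 0.05, adjusted p = 0.00675). In knockout hearts alone the covariate fit gave log2 change 0.31, SE 0.07, adjusted p = 0.0185.

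Rpl13a, a large subunit protein that also has a role outside the ribosome in silencing inflammatory messages, had the smallest adjusted p of the members averaged over genotype. It was chosen after its values were seen. Its values were 8358, 6879.5, 8993, 9840.2 and 6228 in knockout rapamycin and 6899.7, 4409, 4714, 6141 and 10073 in knockout vehicle libraries. In control libraries they were 8406, 11617, 7203, 5597 and 8404 under rapamycin and 14275, 7158, 12622, 6517 and 6003 under vehicle. In knockout hearts vehicle library 5 lies above all rapamycin libraries and vehicle library 1 above rapamycin libraries 2 and 5, and control vehicle library 1 is the highest of all. The covariate fit gave log2 change 0.34, SE 0.06, adjusted p = 0.00336, against 0.12 without the covariate (adjusted p = 0.821).

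Rpl13, of the large subunit, had the largest change of the called members in knockout hearts with the covariate. Its values were 8705, 7878, 9399, 10379.7 and 6874 in knockout rapamycin and 7088, 4598, 5079.5, 6473 and 10017 in knockout vehicle libraries. Vehicle libraries 1 and 5 reach into the rapamycin range. The covariate fit gave log2 change 0.39, SE 0.07, adjusted p = 0.00855 in knockout hearts. In control hearts the covariate change was 0.11 (unadjusted p = 0.139), and the interaction did not pass (adjusted p = 0.6).

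Rpl5 and Rpl11 bind the smallest RNA of the large subunit and, when free, inhibit the p53 regulator Mdm2. Rpl5 had 12675, 10451, 12018, 13226 and 7748 in knockout rapamycin and 9534, 6718, 7507, 8228 and 12574 in knockout vehicle libraries. Library 5 is the lowest under rapamycin and the highest under vehicle, which makes the groups overlap. In control libraries it had 12692, 15140.1, 9993, 8049 and 10203 under rapamycin and 18402, 9750.3, 16722, 9893 and 8425 under vehicle, with vehicle libraries 1 and 3 above all the others. Under the covariate it rose averaged over genotype (log2 change 0.29, SE 0.06, adjusted p = 0.0142), against 0.10 without the covariate (adjusted p = 0.826). Rpl11 averaged 4031 ± 409 in knockout rapamycin and 3966 ± 884 in knockout vehicle hearts, and 4327 ± 624 in control rapamycin and 5349 ± 1591 in control vehicle hearts, and its covariate change was 0.03 (adjusted p = 0.831). The test of a difference between these changes was not made.

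Rps19, a protein of small subunit maturation known from an inherited anaemia in humans, averaged 4721 ± 838 in knockout rapamycin, 5064 ± 1264 in control rapamycin, 4159 ± 1450.3 in knockout vehicle and 6199 ± 2769.9 in control vehicle hearts (SD, n = 5 each). Averaged over genotype it rose under the covariate (log2 change 0.23, SE 0.05, adjusted p = 0.0129), against 0.01 without the covariate (adjusted p = 0.993). Rpsa, which encodes a small subunit protein also known as the laminin receptor precursor, had 15897, 13370.2, 17601, 19723 and 11420.5 in knockout rapamycin and 15289, 9880.3, 10742, 14242 and 22808 in knockout vehicle libraries, which overlap widely. In control hearts it averaged 16479 ± 3484 under rapamycin and 20325 ± 8108 under vehicle. Its covariate change averaged over genotype was 0.16 (adjusted p = 0.0887), and that of Rplp0 was 0.27 (adjusted p = 0.0543). Rpl21, of the large subunit, averaged 4794 ± 592 in knockout rapamycin and 3974 ± 850.2 in knockout vehicle hearts. In control hearts Rpl21 averaged 4530.2 ± 474 under rapamycin and 4658 ± 788 under vehicle. It rose under the covariate averaged over genotype (log2 change 0.23, SE 0.05, adjusted p = 0.0203), against 0.13 without the covariate (adjusted p = 0.675).

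Rpl4 had the profile farthest from the mean of the members. Its protein reaches into the exit tunnel of the large subunit. Values were 14804, 13737, 12923, 15012 and 12698 in knockout rapamycin libraries 1 to 5 and 11226, 11498, 12185, 11503 and 13104 in knockout vehicle libraries. In control libraries they were 12239, 12537, 13856, 14082 and 11792 under rapamycin and 10589, 10213, 10954, 11931 and 11653 under vehicle. In knockout hearts vehicle library 5 lies above rapamycin libraries 5 and 3, and in control hearts vehicle library 4 lies above rapamycin library 5. The change under rapamycin was 0.22 in knockout and 0.22 in control hearts, and averaged over genotype it had the smallest p of all members (log2 change 0.22, SE 0.06, adjusted p = 0.191; unadjusted p = 0.00169).

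With a slope of 0.00 on the length score, Rpl4 was alone among the members, and its estimate was the same with the covariate (log2 change 0.22, SE 0.05, adjusted p = 0.0247). Without control vehicle libraries 1 and 3 it was 0.21 (unadjusted p = 0.00451). Within pools 1 to 4 it was 0.29, 0.36, 0.03 and 0.26 in knockout and 0.12, 0.38, 0.34 and 0.02 in control hearts, positive in every pool. Between genotypes its change was 0.11 under vehicle, the only positive one of the 82, and 0.10 under rapamycin. Over the 20 libraries its highest value was 1.47 times its lowest, the least of the members, and its centred profile lay 0.42 (root mean square, log2) from the members' mean profile, the most of all. Rpl7a lay nearest, at 0.04.

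**Figure D4:**
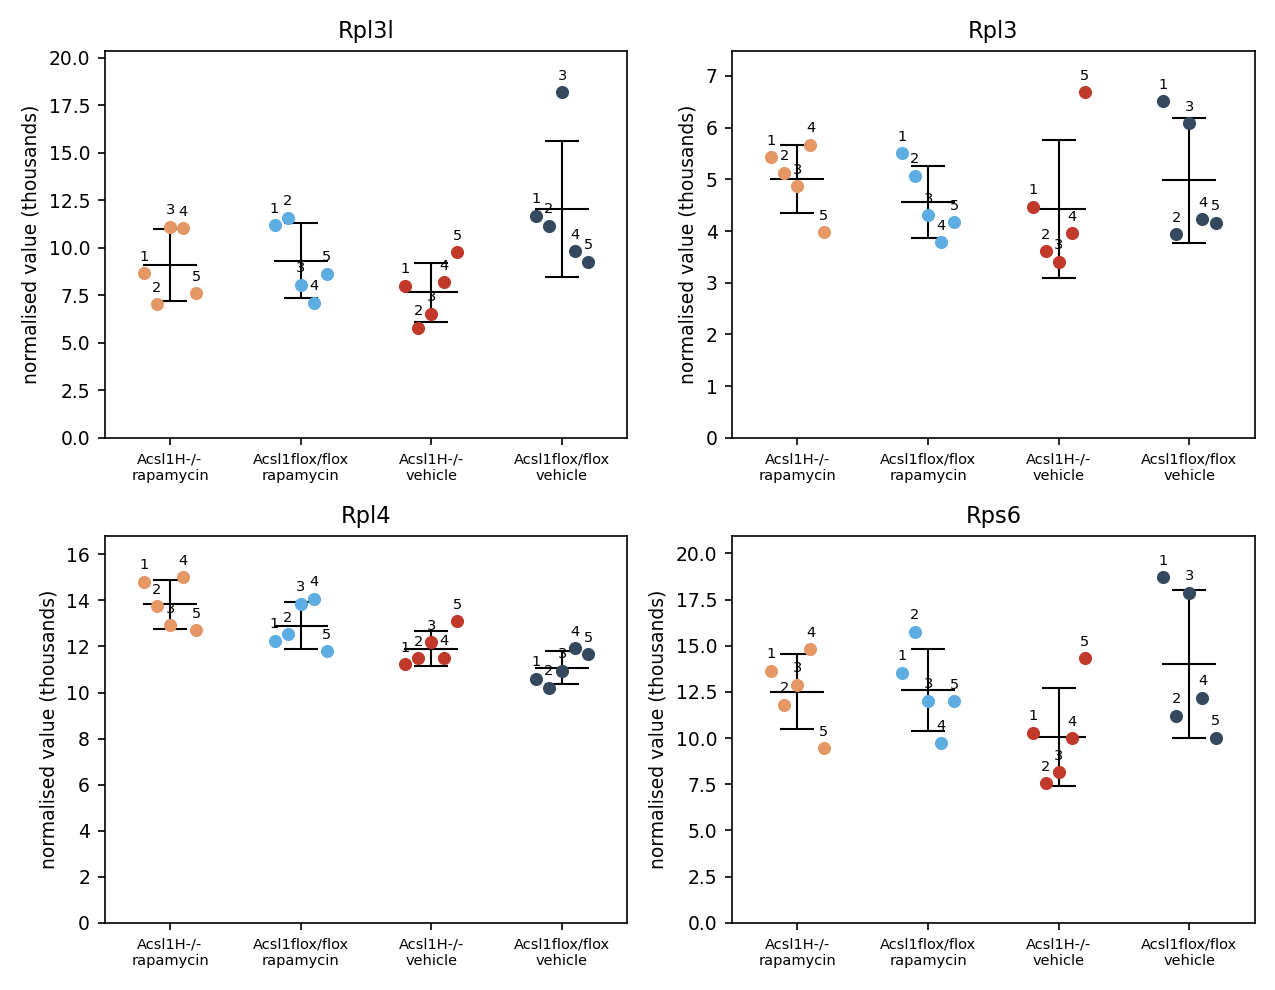
Values of Rpl3l, Rpl3, Rpl4 and Rps6 in each library (points, numbered by replicate), with the group mean and SD. Rpl4 stays within a narrow range and is higher on average under rapamycin in both genotypes, while Rps6 and Rpl3l vary more within groups.

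Several members have a paralog, a gene of related sequence. Whether the protein of each paralog takes its partner's place in the ribosome was not tested. Hearts held more message of the muscle form Rpl3l than of Rpl3, with 6928 against 3513 per kilobase by mean, and a ratio of values between 1.37 and 2.99 over the 20 libraries (median 1.93). The other 3 paralogs were lower than their partners. The ratio was 0.163 to 0.407 for Rpl22l1 over Rpl22, 0.292 to 0.461 for Rps27l over Rps27 and 0.0900 to 0.145 for Rpl7l1 over Rpl7. Ratios within a library cancel its scaling, and they were compared between groups by exact permutation tests, two-sided, adjusted over 16 tests. They do not cancel the length score where partners differ in their slope on it. The slopes were -1.23 for Rpl22l1 and -0.67 for Rpl22, and -0.58 for Rpl7l1 and -0.78 for Rpl7. They were closer for Rpl3l (-0.70) and Rpl3 (-0.68) and for Rps27l (-1.06) and Rps27 (-0.98).

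The log2 ratio of Rpl3l over Rpl3 was 0.84, 0.69, 0.94, 1.05 and 0.55 in knockout vehicle libraries 1 to 5 and 0.85, 1.50, 1.58, 1.22 and 1.16 in control vehicle libraries. Control library 1 lies within the knockout range, and the other 4 lie above it. The means were 0.81 ± 0.20 in knockout vehicle and 1.26 ± 0.29 in control vehicle libraries (SD, n = 5 each), with a difference of -0.45 and an exact permutation p = 0.0238 (0.169 adjusted). Within pools 1 to 4 the difference was -0.19, -0.82, -0.84 and -0.11, and without control vehicle libraries 1 and 3 it was -0.48. Rpl3 alone averaged 4425 ± 1326 in knockout vehicle and 4984 ± 1209 in control vehicle hearts (log2 change -0.18, SE 0.18, adjusted p = 0.47). Under rapamycin the ratio in knockout minus control hearts was -0.17 (exact permutation p = 0.254).

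Rps27l, a p53 target in the response to stress, was lower relative to Rps27 under rapamycin in knockout hearts, in a test that did not pass after adjustment. In knockout hearts the log2 ratio over Rps27 was -1.64, -1.77, -1.59, -1.63 and -1.58 in rapamycin libraries 1 to 5 and -1.11, -1.24, -1.39, -1.57 and -1.31 in vehicle libraries. The groups do not overlap, with rapamycin below vehicle, and the margin between rapamycin library 5 and vehicle library 4 is narrow. The difference was -0.32 with an exact permutation p = 0.00794, the smallest that 5 against 5 libraries allow, and 0.127 adjusted. It was negative in every pool (-0.66, -0.40, -0.24 and -0.03 in pools 1 to 4). In control hearts the difference was -0.11 (exact permutation p = 0.222). Rps27l itself averaged 946 ± 156 under rapamycin and 1013 ± 321 under vehicle in knockout hearts, and Rps27, its partner, averaged 2954 ± 471 under rapamycin and 2525 ± 729.6 under vehicle.

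For Rpl22l1 over Rpl22 the difference between rapamycin and vehicle in knockout hearts was -0.28 (exact permutation p = 0.0318, 0.169 adjusted), and for Rpl7l1 over Rpl7 it was -0.27 (exact permutation p = 0.0635, 0.254 adjusted). No ratio passed after adjustment. Rpl22l1 averaged 748 ± 168 under rapamycin and 819 ± 222 under vehicle in knockout hearts, and Rpl22 averaged 3927 ± 508 under rapamycin and 3521 ± 595 under vehicle. Rpl7l1 averaged 1294 ± 101 under rapamycin and 1275 ± 158 under vehicle, and Rpl7 averaged 12521 ± 2136 under rapamycin and 10319 ± 2561 under vehicle. With the length covariate, the changes of Rpl22l1, Rps27l and Rpl7l1 averaged over genotype were 0.00, -0.05 and 0.09, and those of their partners 0.15, 0.15 and 0.22. The row named Rps4y2 had a change there of -0.04. Without the covariate it had log2 change -0.41, SE 0.18, adjusted p = 0.33 in control rapamycin against control vehicle hearts, with means of 606 ± 78.1 under rapamycin and 832 ± 276 under vehicle (SD, n = 5 each). Its values were 892.9 and 1287.7 in control vehicle libraries 1 and 3, against 618.5 to 710.2 in the other control vehicle libraries. Leaving out libraries 1 and 3, that change was -0.13.

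**Figure D5:**
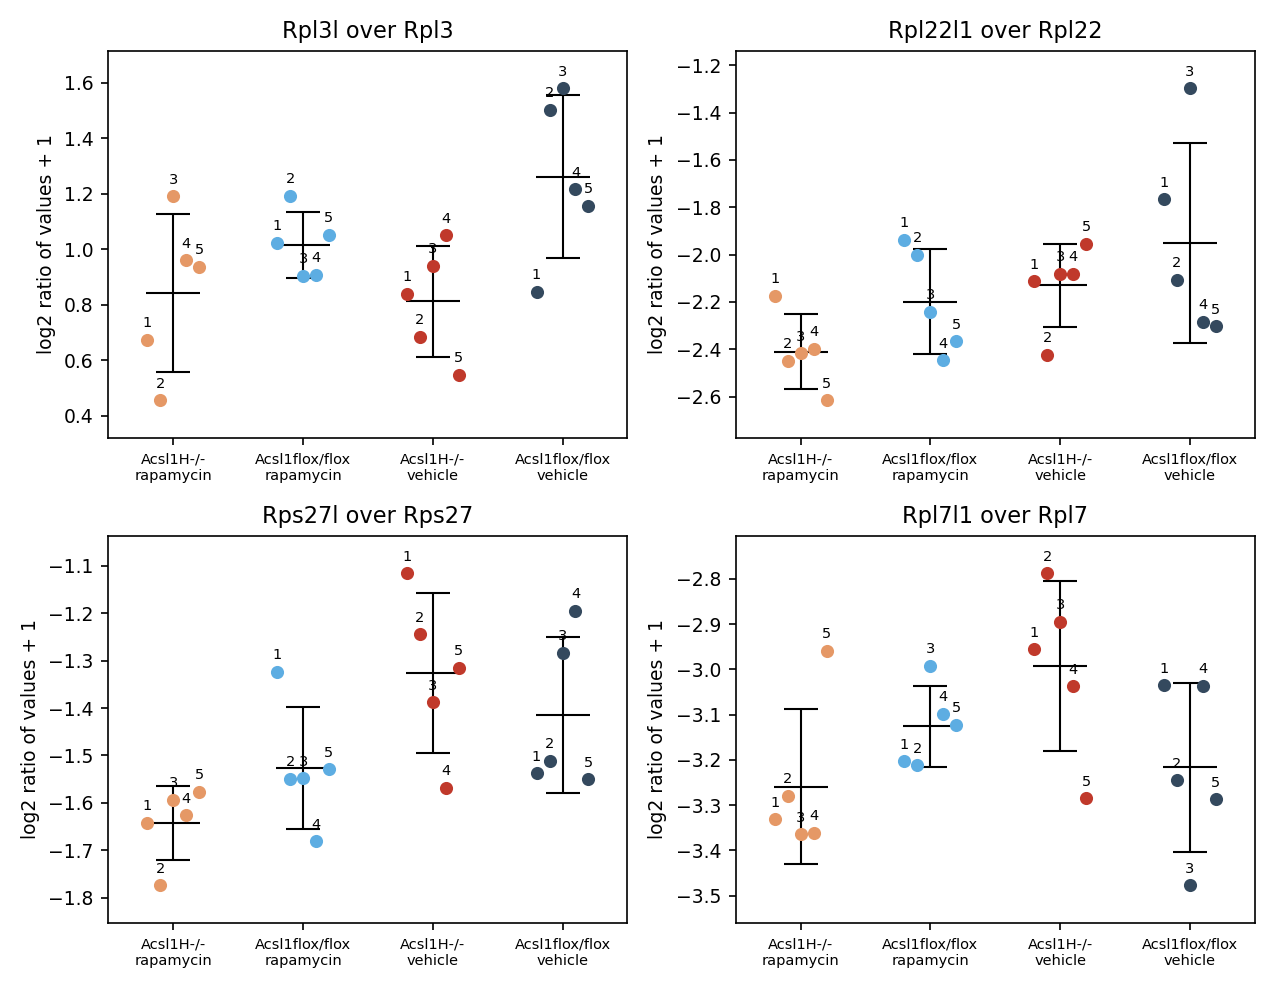
Log2 ratio of each paralog to its partner in every library (points, numbered by replicate), with the group mean and SD. Rps27l over Rps27 is lower in all 5 knockout rapamycin libraries than in the 5 knockout vehicle libraries, and Rpl3l over Rpl3 is higher in 4 of 5 control vehicle libraries than in any knockout vehicle library.

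The rest of the translation machinery was read from lists in the same fit. Of 21 other messages of the TOP class (elongation factors, some initiation factors and a few others, among them the ribosomal proteins Fau and Gnb2l1, which the name rule misses), none was called without the covariate, and their median change in knockout against control vehicle hearts was -0.30. With it, 9 rose under rapamycin averaged over genotype and none fell, with a median of 0.19. Over all genes, 1.5% rose in this fit. Eef1a1, the factor that brings aminoacyl-tRNA to the ribosome, had 47030.3, 47065, 61347, 72084 and 44720.5 in knockout rapamycin and 38019.5, 26660.3, 29501, 35649 and 56427 in knockout vehicle libraries (log2 change 0.45, SE 0.07, adjusted p = 0.00211 averaged over genotype with the covariate). In control hearts its values were 49049, 60100.0, 39232, 34260.4 and 46931 under rapamycin and 58143, 38754, 53519.7, 37048 and 38025 under vehicle, which overlap widely. Eef2, the translocation factor, had 69873, 66416, 81407, 97269.8 and 68652 in knockout rapamycin and 52796, 45986, 54304, 57306 and 70128 in knockout vehicle libraries (log2 change 0.34, SE 0.06, adjusted p = 0.00595). In control hearts Eef2 had 63912, 72855, 69508, 63716 and 70480.4 under rapamycin and 66123, 60441, 63969.8, 61049 and 60617 under vehicle. Control vehicle libraries 1 and 3 lie among those rapamycin values. In knockout hearts only vehicle library 5 reaches into the rapamycin range for both genes, above rapamycin libraries 1, 2 and 5. Of 47 initiation and elongation factors, which share members with the TOP class, 9 rose and none fell, with a median of 0.05. Fau and Gnb2l1 are among the 9 of the TOP list that rose, and Fau, Gnb2l1 and other ribosomal proteins missed by the name rule number 4, of which these 2 rose.

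Among 58 ribosome biogenesis genes, which make and assemble the subunits in the nucleolus, 1 rose under rapamycin with the covariate and none fell, with a median of 0.02. Of 28 tested genes of the mTOR pathway 1 rose, with a median of 0.03, and of 11 regulators of ribosome number none passed, with a median of 0.03. Over all genes, 203 of 13548 rose in this fit (1.5%), and 347 were called in either direction. Lists of other large complexes were read in the same way. Of 78 tested genes of oxidative phosphorylation 1 rose, with a median of 0.03. Of 38 proteasome genes 2 rose and 1 fell, with a median of -0.01. Of 75 mitochondrial ribosomal protein genes none rose and 5 fell, with a median of -0.06. Without the covariate, in knockout against control vehicle hearts, the medians were -0.47 for oxidative phosphorylation, -0.24 for the proteasome and -0.31 for the mitochondrial ribosome, beside -0.51 for the cytosolic ribosome.

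Among 10258 other genes with a mean of at least 100, those whose centred log2 profile over the 20 libraries lay nearest to the members' mean profile were Rer1 (root mean square difference 0.05), Gm5766 (0.05), Eif5a (0.06), Eef1b2 (0.06), Btf3 (0.06), Gabarap (0.06), Hint1 (0.06) and Tm2d2 (0.07). The median difference was 0.45 over these 10258 genes and 0.10 over the members themselves.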

How the data were processed

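Ventricular poly(A) RNA was sequenced in 20 libraries in 4 pools, per the labels. Per the submitters' processing notes, Picard 1.64, SAMtools and RSEM were used with build mm9. The sources used here do not name the aligner. What was deposited is a normalised signal, in which the authors brought RSEM estimates to a common upper quartile. These are not counts, so no count test was used. The implied depth comes from the most frequent value above 0, taken as 1 read. Between 87.8% and 89.3% of low values were whole reads within 0.05, too few to call reads recovered.

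Values were analysed as log2(value + 1), which understates changes of low genes. Genes with a value of at least 10 in at least 5 libraries were tested with limma 3.58.1 (R 4.3.3, trend), with a mean per group over all 20 libraries, and p-values were adjusted by Benjamini-Hochberg over all 13548 genes. The fit was tested on simulated data. A replicate is a separate animal as far as the submitters' design text says. The p-values set group differences against the spread between these samples within groups.

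Transcript lengths came from GENCODE M21 and promoters from RefSeq (GRCm38.p6), with no coordinates joined to the deposited file. Lengths were found for 81 of the 82 genes.

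The named genes are the 4 members with the smallest p in each comparison, the paralogs with their partners, the highest and lowest by mean, and Rps6, Rplp0, Rpl5, Rpl11, Rps19 and Rpsa, of which 1 is not reported here. Members and lists were chosen with earlier results of these data known. Alternatives changed the pseudocount, filter, scaling, weights, libraries and model terms (pool, replicate number, length score). Paralog ratios were compared by exact permutation. Same-numbered libraries are not said to share a litter and share a pool only in part, and their numbers were not taken to pair them.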

Additional observations from a re-analysis of the deposited data

Results flagged for a closer look

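Of 116 series of 5 libraries looked at (the members' mean level, the 24 named genes and the 4 paralog ratios in each group), 2 held a library far from the other 4 by Dixon's test at 95%. Chance gives about 1 in 20. The muscle gene Rpl3l was far above the others in control vehicle library 3, at 18197, against 9274 to 11701 in the other control vehicle libraries. The log2 ratio of Rpl7l1 over Rpl7 was far above the others in knockout rapamycin library 5, at -2.96, against -3.36 to -3.28 in the other knockout rapamycin libraries.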

How the results depend on the processing

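Named genes were refitted under 15 other settings and without each of the 20 libraries. Of 5808 such values for the 24 named genes, 5231 kept their direction and their side of the threshold, 64 were called with the same direction, 513 uncalled values had the other sign, and no called value turned round. The members' median log2 change with the length score as a covariate was 0.0127 for knockout against control under vehicle, 0.17 for rapamycin against vehicle in control hearts and 0.0329 for the interaction, against -0.51, -0.24 and 0.46 without it. Called genes then numbered 7 for knockout against control under vehicle, 249 for rapamycin against vehicle in knockout hearts, 37 for genotype averaged over drug and 347 for drug averaged over genotype, with 10 and 26 members called for the second and the last. The cause of these shifts was not tested.

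The other scores were added after seeing the data. A score from genes of middle length gave medians of 0.0446, 0.17 and 0.0264 in the same order, 5, 180, 27 and 244 called genes, and 2 and 12 members. A score without the listed genes gave 0.0113, 0.17 and 0.0333, then 7, 240, 36 and 342 called genes, and 7 and 26 members. The covariate without control vehicle libraries 1 and 3 gave medians of -0.0041 for knockout against control under vehicle and 0.0667 for the interaction, with 4 and 319 called genes for knockout against control under vehicle and rapamycin in knockout hearts. It gave 5 for knockout against control under rapamycin and 191 for drug averaged over genotype, with 13 members called for rapamycin in knockout hearts and 14 for drug averaged over genotype.

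Other settings moved counts of all called genes, with no member called. Leaving out control vehicle libraries 1 and 3 gave 4 for knockout against control under vehicle, 0 for rapamycin in knockout hearts, 11 for genotype and 4 for drug. Array weights gave 12, 58, 131 and 35, and 14 for knockout against control under rapamycin. Pool as a term gave 56 for knockout against control under vehicle, and 0 for rapamycin in knockout hearts and for drug. Fitting only the groups compared gave 3 for knockout against control under vehicle. Rapamycin in knockout hearts had 0 in that fit, under median-ratio scaling and under quantile normalization, and genotype had 37 with no filter on low values. Same-numbered libraries deviated with correlations of -0.51 to 0.27. Each value rests on a single pair of libraries, so it cannot decide whether the numbers pair animals. The replicate block gave 0 called genes for rapamycin in knockout hearts and 5 for drug averaged over genotype.

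Leaving out 1 library at a time gave 8 to 3089 called genes for knockout against control under vehicle, with 0 to 45 members, 0 to 2 for rapamycin in knockout hearts, 21 to 150 for genotype and 3 to 17 for drug. At the implied depth of 11.48 to 21.07 M reads, spread between libraries limits these comparisons. Reads shared with processed copies may limit them as well, which was not tested. RSEM's own uncertainty is not in the deposited values.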
